A study of Drosophila melanogaster with 8 samples.

Results

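The Sp1 peaks of larval leg discs were the 9850 regions where chromatin precipitated through GFP-tagged Sp1 exceeded input chromatin. They made up 9850 of the 22169 peaks of the series, and every peak of the Sp1 list was taken. The other 12319 peaks were those of Distal-less (Dll) and are used only side by side. The larvae were wandering L3 *Sp1-GFP* (BAC) animals. Their transgene, BAC clone CH321-64M02 at landing site VK00033, carries Sp1 fused to GFP. The tagged protein therefore came from a transgene and not from the *Sp1* gene at its own place. Chromatin came from pools of 100 larvae with all 6 leg discs of each, and a rabbit anti-GFP antibody was used for precipitation. For Sp1-GFP there were 3 ChIP libraries and 1 of input, which was 10% of the chromatin. Dll was precipitated with an anti-Dll antibody from *yw* larvae, which do not carry the BAC. The sex of the larvae was not given.

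Sp1 is a zinc finger transcription factor of the Sp family, which binds GC-rich boxes in DNA. Together with its paralog Buttonhead (Btd) it specifies ventral appendages and promotes the growth of the fly leg. ChIP-seq sequences the DNA that is precipitated with a protein, and a peak is an interval where these reads exceed those of input. Each Sp1 peak has a start, an end and a score, the −log10 of the q value from the authors' peak caller. A high score says that the excess over input is unlikely to be noise, and it is not a measure of how much protein is bound. The authors called the peaks on merged libraries, so no peak has a replicate spread and no difference between peaks could be tested. The list has no read counts, the depth is unknown, and an absent peak means only that no interval passed the authors' threshold.

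Candidate Sp1 sites are shown for *vnE*, an enhancer of the EGFR ligand gene *vn*, because *vnE* lay under Sp1 peaks and the study designed oligos for 2 putative Sp1 sites in it. The peak list does not show whether Sp1 contacts these bases. When the study mutated these putative sites, expression of the *vnE* reporter did not change. Its binding assays in vitro found weak Sp1 binding at some *vnE* sites of Mad, an effector of Dpp signalling. The paper proposes that Sp1 acts on *vnE* through the putative sites and through some that it shares with Mad. Both sequences below come from the study's oligo table, and capitals mark the bases that its mutant oligos replaced.

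vnE Sp1 site1: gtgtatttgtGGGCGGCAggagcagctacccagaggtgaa

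vnE Sp1 site2: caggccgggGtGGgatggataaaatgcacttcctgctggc

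In site1, 8 neighbouring bases form a GC box, and in site2 the 3 replaced bases are all G. *vnE* spans 653 bp on chromosome 3L (dm3, 5859426 to 5860078), and the positions of the sites within it were not determined here. A Sp1 peak of 198 bp at 5859538 to 5859736 lay wholly within *vnE* and had a score of 4.56. A second peak, at 5859815 to 5860133, shared 263 bp with *vnE* and had a score of 5.48. Both were low in the list, at percentile ranks of 13.93 and 33.88 by score. They belonged to a cluster of 4 peaks, which were all the peaks within 10 kb of *vnE*, and the highest of these scored 11.61. That peak, 1068 bp at 5860308 to 5861376 and at rank 83.66, lay outside *vnE*. It held a region of the study's list, whose nearest gene there is *CG5568*. The paper states that a region of its list corresponds to *vnE*, and this was the only region from 5 to 6 Mb on 3L.

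Most Sp1 peaks were short. The median length was 130 bp, the 25th and 75th percentiles were 85 and 227 bp, and the range was 53 to 1670 bp. The shortest length, 53 bp, was shared by 333 peaks (3.38%). In all, 3551 peaks (36.05%) were under 100 bp, 485 (4.92%) reached 500 bp and 31 reached 1000 bp. The peaks covered 1.81 Mb together. Of the Dll peaks, 10.34% were under 100 bp, and their median length was 293 bp.

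Scores ran from 4 to 84.94 with a median of 6.52 and quartiles of 5.05 and 9.68. Of all Sp1 peaks, 2244 (22.78%) scored under 5, 2190 (22.23%) scored 10 or more and 120 scored 30 or more. Longer peaks tended to score higher, with a Spearman rho of 0.514 across the 9850 peaks. This is a description, because length and score were set by the same reads and neighbouring peaks are not independent. When the list was cut by score into 10 groups of 985 peaks, the median length went from 91 bp in the lowest to 359 bp in the highest. The 10th to 90th percentile of length in the highest group still spanned 147.4 to 754.0 bp, so a high score did not require a long peak.

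The 10 peaks with the highest scores had lengths of 240 to 1242 bp and scores of 60.35 to 84.94. The highest, at 2733836 to 2734482 on 3R, lay 4061 bp from the nearest region that the study lists for *Antp*, the Hox gene of the second thoracic segment. Here and throughout, a region is an intersection of Sp1 peaks, Dll peaks, open chromatin and motifs from the study's list, and its gene is the nearest transcript given there. The second highest peak, 71.57, was at 976192 to 976981 on 3R, 49384 bp from a region of *CG43131*. The third, 69.80, was at 739591 to 740531 on 2L, 37105 bp from a region of *ds*, which encodes the cadherin Dachsous. A peak scoring 69.25 at 16049669 to 16050169 on 2L was 219249 bp from any listed region. The peak at 673323 to 673667 on 3L scored 68.10 over only 344 bp. The peak at 18859218 to 18859458 on 2L scored 67.81 over 240 bp, the shortest of these 10. Next came a 1242 bp peak at 5000757 to 5001999 on 2L, scoring 64.84, which lay 2799 bp from a region of the reticulon gene *Rtnl1*. The others were at 20744377 to 20745015 on 2R (63.05), at 22707048 to 22707399 on 3R (62.61) and at 13315184 to 13315429 on X (60.35). Of the 10, the one on 3R at *T48*, which encodes an apical membrane protein of gastrulating cells, was the only peak that held a region. Of all Sp1 peaks 4.48% held a region, and of the 100 peaks with the highest scores 19 did.

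The 10 longest peaks were a different set, with no peak in common with the 10 highest. They were 1330 to 1670 bp long and scored 14.51 to 55.93. The longest, at 25080997 to 25082667 on 3R, scored 18.08 and held a region of *stg*, the gene of the Cdc25 phosphatase that drives entry into mitosis. A 1564 bp peak at 2202082 to 2203646 on 2L held a region of *CG31668* and scored 37.74. At *spi*, the gene of the EGFR ligand Spitz, a peak of 1553 bp at 19575233 to 19576786 on 2L scored 23.12. A 1551 bp peak at 19033925 to 19035476 on 3L, 4203 bp from a region of the Wg antagonist gene *nkd*, scored 31.75. At *pdm3*, which encodes a POU domain factor, a 1535 bp peak at 4208084 to 4209619 on 2R scored 14.51. A single 1424 bp peak at 20701067 to 20702491 on 2R held both regions of *Dll*, the homeobox selector of the distal leg, and scored 33.41. In total 5 of the 10 longest peaks held a region, beside 4.48% of all Sp1 peaks.

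**Figure D1:**
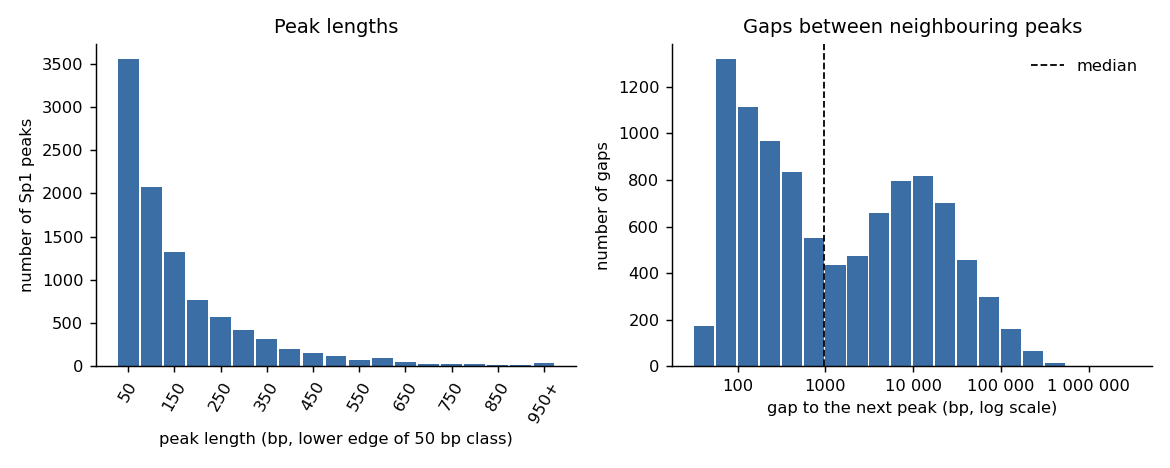
Left, number of Sp1 peaks by length in classes of 50 bp, with peaks of 950 bp or more pooled; right, number of gaps between neighbouring Sp1 peaks on a log scale, with the median of 959 bp dashed. The lengths fall off from the shortest class, which holds 3551 peaks, and the gaps form 2 humps with a low of 433 gaps between 1000 and 1778 bp.

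Sp1 peaks were unevenly spaced. The 9837 gaps between neighbouring peaks had a median of 959 bp and a mean of 13265.4 bp, 13.83 times the median. They include gaps on sequences not assigned to the chromosome arms. On the arms alone the median was 957 bp and the longest gap 507.6 kb. The mean on the arms alone was not computed, and longer gaps elsewhere raise the mean given here. No gap was smaller than 51 bp, which was also the smallest gap between Dll peaks. Gaps of up to 100 bp made up 15.30%, those of up to 500 bp 43.23% and those of up to 10000 bp 74.36%. On a log scale the plot of gaps showed a hump of short gaps and a hump of long gaps. The fullest class of short gaps, from 56 to 100 bp, held 1318 gaps, and the fullest class of long gaps, from 10000 to 17783 bp, held 818. Between them the class from 1000 to 1778 bp held 433. On this log scale the fullest classes of short and of long gaps thus held more gaps than the class between them. Classes widen with gap size here, so the hump of long gaps does not mean that they were more common per bp.

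Peaks were joined into a cluster when the gap between neighbours was 500 bp or less. This left 5597 units, of which 3283 were single peaks and 2314 were clusters of at least 2 peaks. A neighbour within 500 bp was found for 6567 peaks (66.67%), against 72.03% of Dll peaks. There were 1025 clusters of at least 3 peaks, 215 of at least 5 and 13 of at least 10. The 215 clusters of at least 5 held 1309 peaks, or 13.29% of the list. Within clusters, the centres of neighbouring peaks were 343.5 bp apart at the median, with quartiles of 248.5 and 475 bp.

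Clusters held the higher scores. The best score of a cluster had a median of 5.84 for single peaks, 8.77 for 2 peaks, 11.07 for 3, 13.18 for 5 and 24.52 for 10 or more. Part of this follows from taking the best of more peaks, but the median score of all clustered peaks was also higher, at 7.05 against 5.84. Clustered peaks had a median length of 139 bp and single peaks of 115 bp. The share of peaks in clusters went from 57.87% in the lowest of the 10 score groups to 77.06% in the highest. Even so, 29 of the 100 peaks with the highest scores stood alone.

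The inner order of clusters was irregular. The peak with the highest score was also the longest in 1384 of the 2314 clusters (59.81%). In clusters of at least 3 peaks the highest was at an end in 517 of 1025 (50.44%), while end peaks were on average 55.90% of the peaks of such a cluster. The highest score was 1.52 times the median score of the same cluster, as a median over these 1025 clusters.

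**Figure D2:**
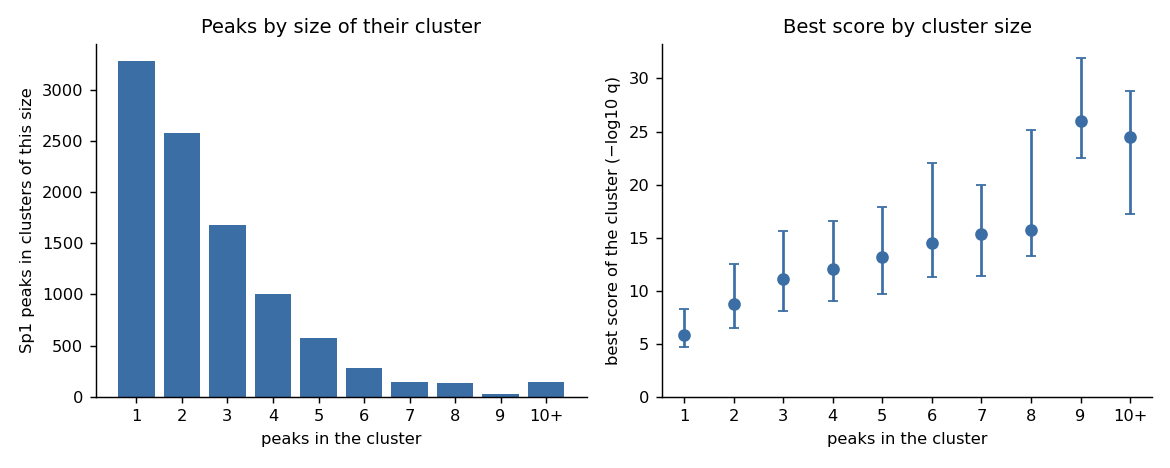
Left, number of Sp1 peaks in clusters of each size, where 1 is a single peak; right, median best score (−log10 q) of clusters of each size, with bars from the 25th to the 75th percentile over clusters. Single peaks number 3283 with a median score of 5.84, and clusters of 10 or more have a median best score of 24.52.

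The cluster with the most peaks held 18 in 5887 bp, at 5977383 to 5983270 on 2L. It contained both regions of *chic*, which encodes the actin-binding protein profilin. Its peaks covered 58.93% of its extent, and their scores ran from 4.52 to 20.55 with a median of 7.05. The highest score belonged to a peak of 154 bp in the middle of the cluster and the longest peak, 669 bp, lay just after it. Most of its peaks were short and scored below 10.

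The next clusters were on 3L and 2R. A cluster of 12 peaks at 18183823 to 18188761 on 3L held a region of *CG7320*. Its highest peaks stood at its ends, with scores of 36.74 at the start and 31.75 at the finish, and its median was 5.54. About 38 kb further along 3L, at 18226628 to 18230506, another cluster of 12 peaks lay 3130 bp from a region of *CheA75a* and scored 18.93 at most. The other clusters of 12, at 18821200 to 18825522 on 2R and at 16401435 to 16405331 on 3L, were 60450 and 175938 bp from any region, with best scores of 30.26 and 24.52. Of the clusters of 11 peaks, the one at 13688383 to 13692672 on 2R held a region of *grh*, which encodes the epidermal transcription factor Grainyhead. It had 2 strong peaks, of 27.90 over 622 bp and of 33.20 over 151 bp, among weaker ones. The other clusters of 11, at 14748080 to 14753316 on 3L and at 6453428 to 6457172 on 2R, were 117842 and 512444 bp from any region. In the last of these no peak scored below 6.52 or above 15.90.

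A cluster of 10 peaks at 12003171 to 12007894 on 2L, with a region of *CG6746* and a region of the rhodopsin gene *Rh5*, was the most filled of the 10. Peaks covered 80.97% of its extent and their median score was 15.65, the highest median among these 10 clusters. The last of these clusters, at 8814512 to 8818908 on 3L, held a region of *dally*, which encodes a glypican that binds Wg and Dpp, and had a median of 5.31. In sum 5 of the 10 clusters held a region, beside 64 of the 215 clusters with at least 5 peaks.

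**Figure D3:**
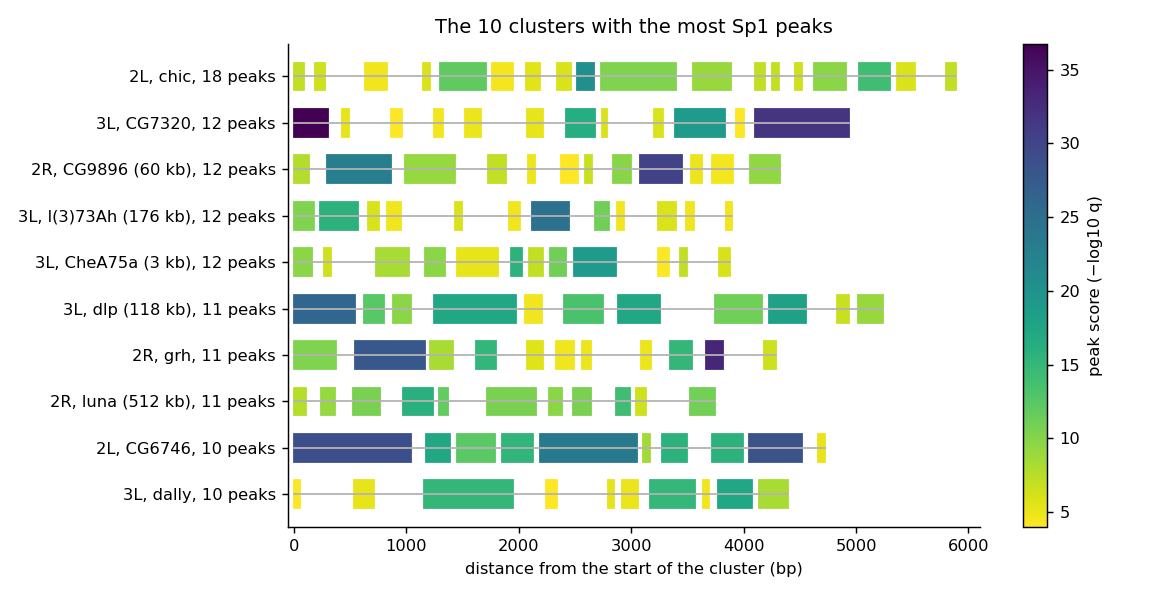
Each line is 1 of the 10 clusters with the most Sp1 peaks, drawn to scale from its start in bp; boxes are peaks coloured by score (−log10 q), and labels give the arm, the gene of the nearest region with its distance if outside the cluster, and the number of peaks. The *chic* cluster is the longest at 5887 bp and consists mainly of low scores, while the *CG6746* cluster is covered to 80.97%.

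Along the genome, 9775 of the 9850 peaks lay on the arms 2L, 2R, 3L, 3R, X and 4. Density is given per Mb of the span from the first to the last Sp1 peak of an arm. Over the 6 arms there were 81.51 peaks per Mb, and peaks covered 1.50% of the span. The densest arm was 2R with 2038 peaks or 96.61 per Mb, followed by 3L with 2112 (86.34), 3R with 2293 (82.20) and 2L with 1756 (76.47). The X had the lowest density, 1480 peaks or 66.24 per Mb. No error can be given for these densities, so their order describes this list alone.

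The X stood low in several respects. Its density was 0.779 of that of 2L, 2R, 3L and 3R together (66.24 against 85.04 per Mb), while the same ratio in the Dll list was 0.933. Its peaks were also shorter, with a median of 118 bp against 133 bp. Of X peaks 40.54% were under 100 bp, beside 33.66% to 37.50% on these 4 arms and 40.62% on chromosome 4. A neighbour within 500 bp was found for 61.62% of X peaks, the lowest share of any arm, and for 68.50% of those on 2R, the highest. Median scores hardly moved, from 6.45 on X to 6.52 on these 4 arms.

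Chromosome 4 carried 96 peaks in 1.17 Mb, or 81.99 per Mb, close to the mean of the arms. Their median score, 8.32, was the highest of any arm, and no gap reached 100 kb. The Dll list had 523 peaks there, or 446.9 per Mb, so the high density of Dll peaks on this small chromosome had no counterpart in the Sp1 list. A further 75 Sp1 peaks lay on 7 sequences that are not assigned to the arms, mostly heterochromatin. They had a median score of 7.68, and the highest scored 39.40, at 5630786 to 5630998 on the unplaced sequence U.

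**Figure D4:**
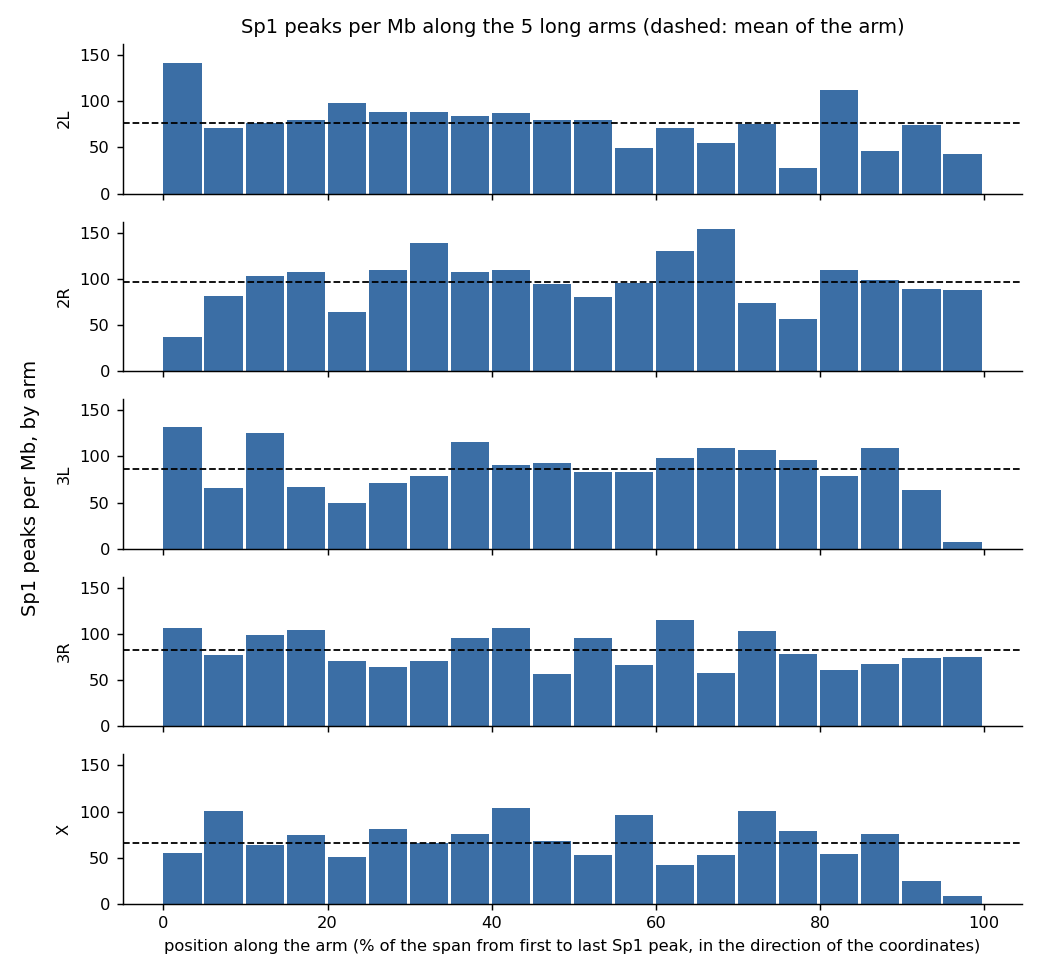
Sp1 peaks per Mb (vertical axis) in 20 bins of 5% of the span of each long arm, with the mean of the arm dashed. The X has the lowest mean, 66.24, and 3L and X drop in their last bins, where the coordinates approach the centromere, while 2R is low in its first bin.

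In full bins of 1 Mb the number of Sp1 peaks ran from 12 to 158 with a median of 81.50 over 116 bins, and the 90th percentile was 2.36 times the 10th. Bins rich in Sp1 peaks were rich in Dll peaks, with a Spearman rho of 0.823 over the 116 bins. Both lists rest on the same genome sequence and tissue, so this is a description. The densest bin, from 14 to 15 Mb on 2R, had 158 peaks and 6 regions, among them one of *fj*, which encodes a Golgi kinase of the Fat pathway. On 2L the first Mb was densest with 145 peaks and 9 regions. Genes of this bin include *ds* and *ex*, both of the Fat and Hippo pathway, and *ush*, which encodes a GATA cofactor. The first Mb was also the densest of 3L, with 131 peaks and 9 regions. On 3R the bin from 17 to 18 Mb had 125 peaks, with regions of the insulin receptor gene *InR* and the cell cycle factor gene *E2f1*. On X the bin from 9 to 10 Mb had 114 peaks, with regions of *Sp1* and *btd*.

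The sparsest bins were 23 to 24 Mb on 3L with 12 peaks, 17 to 18 Mb on 2L with 13 and 21 to 22 Mb on X with 15. None of these had a region. On 2R and 3R the sparsest bins, 0 to 1 Mb and 22 to 23 Mb, had 36 peaks each. The bin on 3R nevertheless held the *T48* peak with its score of 62.61. In the dm3 coordinates the centromere lies beyond the high end of 2L, 3L and X and beyond the low end of 2R and 3R. The 2 full bins nearest the centromere had 43 peaks on X, 86 on 3L, 96 on 2R and 118 on 2L, against 143, 178, 198 and 157 for a typical pair of the same arm. On 3R this did not hold, since the 2 bins had 190 peaks against 166.

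Bins of 100 kb, a size added after values were seen, showed how local the density was. Of 1187 such bins 153 (12.89%) had no Sp1 peak, the median was 7, and the 93 bins with at least 20 peaks held 24.50% of the peaks on the long arms. The bin with the most peaks was 9600001 to 9700000 on X, with 52, and *Sp1* itself lies in it. Bins of 43 peaks followed at 6400001 to 6500000 on 2R, which has no region, and at 17400001 to 17500000 on 3R, with *InR* and *E2f1*. The next were 12000001 to 12100000 on 3R with 42 peaks, where *tara* lies, and 14100001 to 14200000 on 2R with 40 peaks, where *fj* and *sbb* lie.

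The surroundings of *Sp1* are given in more detail because the BAC carries a copy of this gene, so reads of the BAC cannot be told apart from those of the locus on X. Within 10 kb of the *Sp1* region there were 21 peaks, or 1019.4 per Mb, and within 40 kb there were 49, or 607.9 per Mb. Their median score within 40 kb was 6.04, below that of the list, and the highest was 33.20, from the peak at 9622989 to 9623589 on X. A second strong group, at 9616087 to 9617505, had scores of 28.52, 27.56 and 21.56 in 3 neighbouring peaks. The peaks of the 100 kb bin ended at 9673942, and the next Sp1 peak on X started 230.0 kb later. Dll chromatin, which came from larvae without the BAC, had 45 peaks in the same 100 kb. That list is of another factor and another antibody. Whether the BAC contributed to the Sp1 peaks of this bin was not tested. The rest of the Mb bin on X held 62 peaks. Around *btd*, about 36 kb from *Sp1*, there were 8 peaks within 10 kb, the highest of which scored 19.78.

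Long distances without a Sp1 peak were common. In all, 229 stretches of at least 100 kb made up 37.85 Mb of 119.9 Mb, or 31.56%. Their median length was 146.6 kb, 52 were at least 200 kb long and 11 at least 300 kb. The share was lowest on 2R (23.06%) among the long arms and highest on X (38.35%), and 4 had none. Only 23 of the 229 stretches (10.04%) lacked a Dll peak as well. Dll peaks occurred in them at 21.11 per Mb, against 102.3 per Mb over the 6 arms. The stretches were therefore poor in Dll peaks and yet seldom empty of them. The Sp1 peaks that bounded the stretches had a median score of 6.45, near that of the list.

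The longest stretch was 507.6 kb, at 24021609 to 24529193 on 3L. It was the last of 3 among the 10 longest that followed each other at the high end of 3L, after 23332200 to 23707990 (375.8 kb) and 23708150 to 24020888 (312.7 kb). At the high end of X there were 3 more, of 375.3 kb from 20528144, 355.2 kb from 21502320 and 379.1 kb from 22036155. So 6 of the 10 longest stretches lay at the centromere-near ends of 3L and X. The other 4 lay within arms. On 2L the longest ran from 16888463 to 17267482 (379.0 kb) and had 5 Dll peaks, with scores up to 8.27. On 3R stretches of 376.0 and 337.7 kb began at 23774820 and 3375307, and the second ended 65.07 kb from a region of the sex determination gene *dsx*. On 3L a stretch of 332.0 kb began at 13506475, without any Dll peak. It started 19.10 kb from a region of *Tgi*, a corepressor gene of the Hippo pathway, and the peak at its far end scored 32.24. The longest stretch of 2R was 262.4 kb, from 13759087 to 14021489, and it ended inside the densest Mb bin of the list.

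There were 442 regions with 339 nearest genes, and 22 of the regions had no gene. The dm3 gene models were not used here, so the position of peaks in exons, introns or UTRs is not given. The regions lay in 441 Sp1 peaks, or 4.48% of the list. These peaks had a median length of 429 bp and a median score of 12.05, against 126 bp and 6.45 for the others. The study chose regions that lay in Dll peaks and open chromatin and held several motifs, which longer peaks can pass more often, so these medians are no independent evidence. Of the 442 regions, 329 (74.43%) lay in clusters and 113 in single peaks. Of all Sp1 peaks 66.67% lay in clusters. In the score group from 10.38 to 14.07, which includes the median score of peaks with a region, the share was 74.92%. Of the 215 clusters with at least 5 peaks, 64 held a region. Of all 5597 units, single peaks and clusters together, at most 441 held a region, since the regions lay in 441 peaks. A cluster of more peaks has more chances to hold a region. The 215 clusters held 13.29% of all Sp1 peaks, which is a share of peaks and not of clusters. Within 10 kb of a region there were 6 Sp1 peaks at the median, with quartiles of 3 and 9 and a range of 1 to 21. For any Sp1 peak of the list the median was 5, itself counted. In 214 regions (48.42%) the peak that held the region was the best within 10 kb, so in the other regions a higher Sp1 peak lay nearby.

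Genes differed in how many Sp1 peaks surrounded their regions. A gene's count covers all its regions and so grows with their number. The count was highest for *shn*, which encodes a zinc finger factor of the Dpp pathway, with 25 peaks around 4 regions on 2R and a best score of 27.90 at 7084800 to 7085424. *Ppa*, the gene of an F-box protein, had 22 peaks around 2 regions on 2R, with the best region peak at 18573565 to 18574051 scoring 21.98. *ex*, which encodes the FERM protein Expanded upstream of Hippo signalling, also had 22 around 2 regions on 2L, and its best region peak at 429802 to 430643 scored 18.91. *Sp1*, *CG3473* and *chic* had 21 each, *Antp* and *Tet* had 20, *CG7320* and *tou* had 19, and *jing* and *tara* had 18. *E(spl)malpha-BFM*, *CG43337* and *Eip74EF* closed the 15 genes with 17 each. Among these 15, *Sp1*, *CG7320*, *tara*, *E(spl)malpha-BFM* and *CG43337* reached their counts with 1 region. For *Sp1*, reads of the BAC cannot be told apart from those of the locus. Of the 339 genes, 78 had at least 10 peaks and 17 had 1.

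Some of these loci had their best peak outside the regions. At *Antp* the best region peak, at 2748872 to 2749247 on 3R, scored 14.07, while the highest peak of the list, 84.94, lay within 10 kb of a region. At *chic* the region peaks reached 12 and the surroundings 20.55. At *tou*, which encodes a chromatin protein, they reached 9.68 and 23.29. At *jing*, which encodes a zinc finger factor and has 6 regions on 2R, the best region peak was also the best within 10 kb, with 38.75 at 2435710 to 2436549.

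The 15 genes with the highest region peaks were mostly others. They were led by *T48* with 62.61, followed by *Rtnl1* with 51.55 at 4997223 to 4998522 on 2L and *hng3* with 51.51 at 748617 to 749799 on 3L. *hng3* had 4 peaks within 10 kb, and its region peak was a single peak of 1182 bp. *CG42238* followed with 40.82 and *Cpr35B*, a cuticle protein gene, with 39.77. *jing* (38.75), *CG31668* and *E(spl)malpha-BFM* (37.74 each), *CG16721* (35.72) and the cyclin gene *CycG* (35.12) came next. *InR*, *caps* and *disco* shared a score of 33.73, and *Dll* and *grn* shared 33.41. *caps* encodes a cell surface protein with leucine-rich repeats, *disco* a zinc finger factor of ventral appendages and *grn* a GATA factor. Of these 15, *jing* and *E(spl)malpha-BFM* were also among the 15 with the most peaks.

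Genes of the leg and of signalling pathways were read from 8 role lists with 113 genes in all, of which the study's list named 53. These lists were drawn up with earlier results of the data known, and a gene could enter only with a region in a Sp1 peak. They therefore describe where peaks lie and test nothing. The share of all fly genes that the study's list names was not determined here. Whether 53 of 113, or the count of any single list, is high can therefore not be said. The 53 genes had 8 Sp1 peaks at the median and a median best region peak of 18.09, beside 5 and 12.56 for all 339 genes.

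Of the list of leg and appendage transcription factors, which also holds the peptide gene *tal-3A*, 18 of 35 genes were named. They had 5 peaks at the median and a median score of 20.16. The highest were *disco*, with 33.73 at 16110842 to 16111642 on X, and *Dll*, *grn* and *Sp1*. *tal-3A*, one of the reading frames for small peptides needed for tarsal joints, had a single peak within 10 kb, at 9638393 to 9638897 on 3R, which scored 31.75. *bab2*, a BTB domain gene of the tarsus, had 2 peaks, and *ss*, the bHLH-PAS gene of distal leg and antenna, had 1. Of the leg genes with the highest region peaks, *Sp1* had 21 peaks within 10 kb, *Dll* 8, *disco* 5, *grn* 3 and *tal-3A* 1. Reads of the BAC cannot be told apart from those of the *Sp1* locus, so the count of 21 carries that limit. The best region peaks of *Dll*, *grn* and *tal-3A* were single peaks, and that of *Sp1* was in a cluster of 2.

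Of the Wg list 10 of 16 genes were named, with 9.5 peaks and a score of 12.04 at the median. The receptor gene *fz2* had 29.82 at 19187438 to 19188288 on 3L, and *nkd* had 30.78 at 19039601 to 19040479 on 3L. The ligand gene *wg* itself was low, with 6.04 and 5 peaks. The glypican genes *dally* and *dlp* had 14 and 13 peaks, and their region peaks of 15.06 and 9.01 lay in clusters of 10 and 8. Of the Dpp list 5 of 12 genes were named, with 11 and 15.06 at the median. They comprised the receptor gene *tkv* (12.56), *shn* (27.90), the inhibitory Smad gene *Dad* (15.06), the target *salm* (18.09) and the Smad gene *Smox* (13.44).

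Of the EGFR list 3 of 12 genes were named, the ligand gene *spi* (23.12), the Ets repressor gene *aop* (13.75) and *kek1* (10.90), which encodes an inhibitor of the receptor. The Notch list had 4 of 12 genes named, and its median score, 28.22, was the highest of the 8 lists. The ligand gene *Ser* had 24.19 at 23026694 to 23027330 on 3R, and *fng*, the gene of a glycosyltransferase that modifies Notch, had 22.40 at 20942570 to 20943086 on 3L. The Notch targets *E(spl)malpha-BFM*, at 21834052 to 21834548 on 3R, and *E(spl)m3-HLH*, at 21847259 to 21847545, had 37.74 and 32.24. These neighbours lie about 13 kb apart, so some of their surrounding peaks are the same.

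The Hedgehog list had 3 of 6 genes named and the lowest median score, 7.48. The ligand gene *hh* had 7.48 and the coreceptor gene *boi* 7.03, while the receptor gene *ptc* had 23.12 at 4534840 to 4535675 on 2R. Of the Fat and Hippo list 4 of 10 genes were named. *ds* had 24.19 at 701756 to 702486 on 2L and *ex* 18.91, and *Tgi* and *fj* had 9.26 and 8.98. Of the ecdysone and growth list 6 of 10 genes were named, with a median of 10.50 peaks and a median score of 20.19. *InR* had 33.73 at 17441743 to 17442367 on 3R, *Eip74EF*, an Ets gene induced by ecdysone, had 27.90 at 17583606 to 17584458 on 3L, and the receptor gene *EcR* had 8.32. Within 10 kb of regions of *Eip78C*, a nuclear receptor gene, and of *InR*, higher peaks of 47.20 and 43.97 lay outside the regions.

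**Figure D5:**
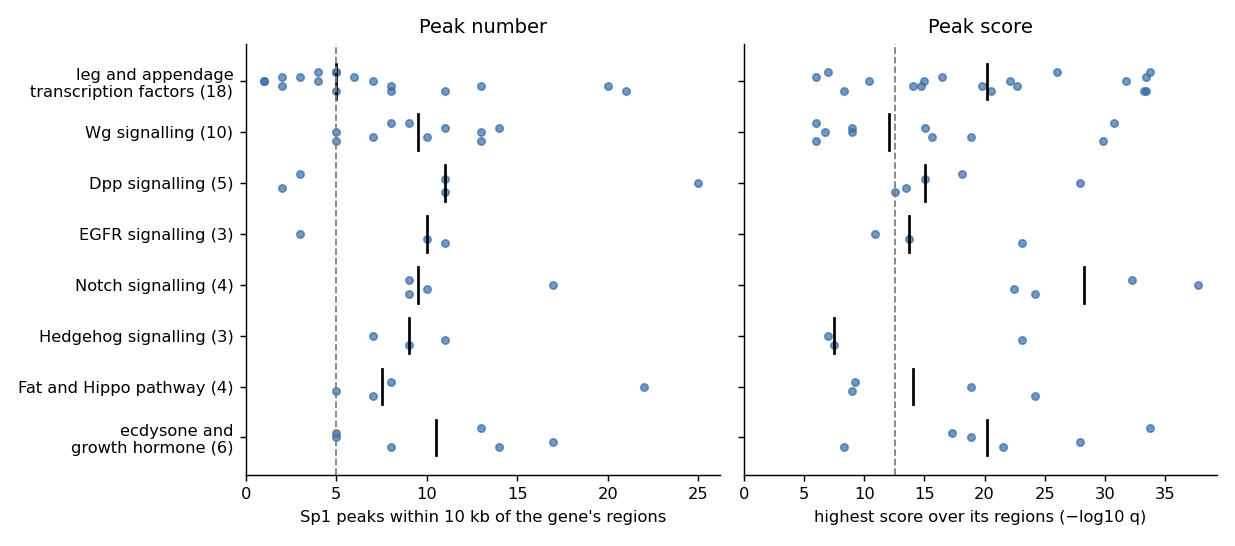
Points are the genes of each role list that have a region, with the number of Sp1 peaks within 10 kb of their regions on the left and the highest score (−log10 q) of a peak that holds a region on the right; black bars are medians of the list and dashed lines those of all 339 genes, 5 peaks and 12.56. The Notch genes lie at 22.40 or more, and the Dpp gene *shn* has the most peaks, 25.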

How the data were processed

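Leg disc chromatin of *Sp1-GFP* (BAC) larvae was precipitated with anti-GFP and sequenced beside input. The authors aligned reads with BWA (version not given in the sources used here) and called peaks against input with MACS, listed as MACS2 2.0.9 in the submitters' processing notes. The deposited score of each peak is the −log10 of its q value, and coordinates are those of dm3. The methods mention triplicate pools and also merged duplicates, so which libraries entered the list is open. Starts were read as deposited, since the list does not say whether they count from 0 or 1.

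No reads were processed again. Lengths, gaps, clusters (gaps of 500 bp or less), bins of 1 Mb, peak-free stretches of 100 kb or more and peaks within 10 kb of the study's regions were computed with Python 3.11.15, numpy 2.4.6, pandas 2.3.3 and scipy 1.17.1. An overlap was 1 bp or more, and bins took peaks by their centre. The steps were tested on simulated data, and planted values were recovered in 20 of 20 lists. No columns of other series were present.

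Named loci were the 10 highest and 10 longest peaks, the 10 clusters with most peaks, the 10 longest peak-free stretches, and the longest stretch and the densest bin of each long arm. Named genes were the 15 with most peaks, the 15 with the highest region peak, and examples from the role lists. The sparsest bins, the 100 kb bins and the *Sp1* surroundings were added after values were seen. Members and lists were chosen with earlier results of these data known. All 339 gene names were found in a RefSeq table of release 6, from which no coordinates were taken. A genome, gene models and proteins were not used here. There is no replicate spread and the depth is unknown, so no test was made.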

Additional observations from a re-analysis of the deposited data

How the results depend on the processing

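Of 41 alternative settings, 40 were set out first and 1 was added after seeing the data. With scores of 6 or more and of 10 or more, respectively, the median length was 176 and 274 bp, the rho of length and score 0.505 and 0.405, the median gap 3933 and 16937.5 bp, the share with a neighbour 53.65% and 32.83%, and the clusters of at least 5 peaks 56 and 6. The X to autosome ratio was then 0.725 and 0.709, the peak-free share 43.50% and 69.63%, the spread over bins 2.71 and 3.49, and the peaks near a region 4 and 2. With peaks within 500 bp joined into 1, the length was 255 bp, rho 0.657, the gap 8382.5 bp, the X ratio 0.851, the bin spread 2.03 and the peaks near a region 3. Joining distances of 200 and 1000 bp gave neighbour shares of 48.08% and 74.64% and 53 and 324 clusters of at least 5. Stretches of 50 kb or more took 52.57% of the span, and leaving off the outer 1 Mb of each long arm gave 30.88%. Bins of 500 kb gave a spread of 3.86, and flanks of 5 and 20 kb gave 4 and 9 peaks. On the arms alone rho was 0.515. In all, 7 settings left their value within its 95% counting interval or, for the count of clusters, within 1.5 times; these include the X ratio without the 100 kb bin around *Sp1*, 0.752. The X ratio stayed below 1 and rho above 0 in all settings run for them. No paired analysis was possible because the peaks were called on merged libraries, and leaving out replicates was not run for the same reason. Since joining neighbours and raising the score threshold changed most values, a number of peaks is not a number of binding sites. Intervals cover counting error only and treat peaks, gaps or regions as independent. Neighbouring peaks are not independent, so the intervals only sort the settings and give no error of the values.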
